A study of Bos taurus and Bos indicus with 3 samples.

Results

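The mitochondrial ATP synthase, also called complex V, was examined through 10 of the nuclear genes that encode its subunits. The genes were chosen by symbol, older symbol or bovine protein entry name, and all 10 were found, each on 1 of the 25968 gene models of the deposited table. The samples were 3 libraries of leukocyte mRNA, each made from blood pooled over cows of 1 breed: 45 Cholistani cows, an indicine breed sampled on a farm in Pakistan, and 7 Jersey and 40 Holstein cows, taurine breeds sampled in Wisconsin. The age of the cows was not given, no treatment was named, and the Cholistani RNA alone was shipped in a dry storage matrix, so breed, place, herd and handling cannot be told apart. With 1 library per breed no value has an error and no test between breeds was possible, and a gene is called higher or lower only as a statement about these libraries.

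ATP synthase sits in the inner mitochondrial membrane and makes ATP from ADP and phosphate, driven by protons that the respiratory chain has pumped out of the matrix. Its F1 head in the matrix holds the catalytic sites, a central stalk turns inside the head, a peripheral stalk keeps the head from turning along, and a membrane part holds the proton channel and the turning ring of c subunits. Most subunits are encoded in the nucleus, and the mitochondrial genome supplies ATP6 and ATP8. In leukocytes the enzyme works beside glycolysis, whose share of ATP supply differs between resting and activated cells.

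All 10 genes were abundant in all 3 libraries. Levels are FPKM, counts of sequenced fragments set relative to transcript length and to the library, so that genes can be compared with each other. The libraries were scaled by an upper quartile, so their summed FPKM need not be equal. The upper quartile of the listed FPKM above 0 was itself unequal, at 292 in Cholistani, 236 in Jersey and 236 in Holstein. The genes ranged between 907 FPKM (ATP5PB) and 5759.97 FPKM (ATP5ME) in Cholistani, between 533 FPKM (ATP5MC1) and 3056 FPKM (ATP5ME) in Jersey, and between 556 FPKM (ATP5MC1) and 2971 FPKM (ATP5F1B) in Holstein. The lowest of them lay at percentile 91.2 of the models above 0 in Cholistani, 89.1 in Jersey and 89.5 in Holstein. Summed, they made up 0.261% of all FPKM in Cholistani, 0.239% in Jersey and 0.247% in Holstein. The number of fragments behind a value is unknown, so no counting interval was computed.

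**Figure D1:**
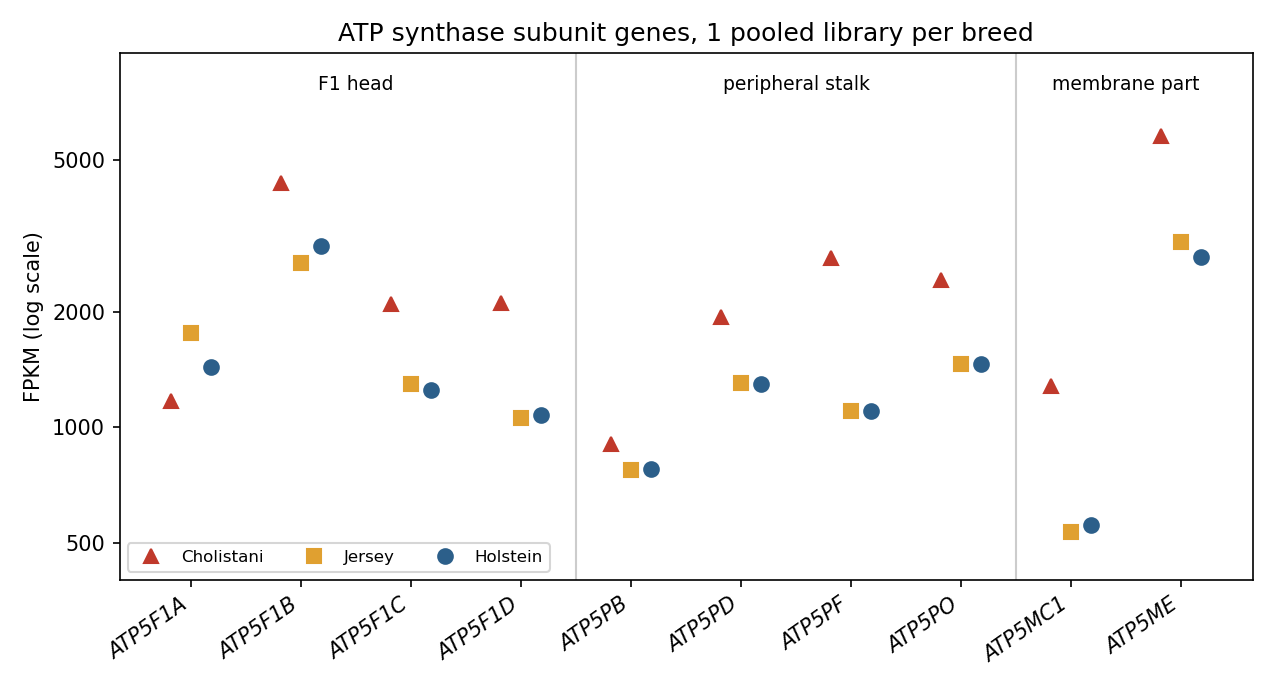
FPKM (log scale) of the 10 ATP synthase subunit genes, grouped by their place in the enzyme, with 1 point per pooled library: Cholistani (triangles), Jersey (squares) and Holstein (circles). In these values as deposited the triangle is for 9 genes the uppermost point and for ATP5F1A it is the lowest, and the Jersey and Holstein points nearly coincide for most genes.

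The Cholistani library stood apart in its scale. Its FPKM summed to 1.60 times the Holstein sum, beside 1.06 times for Jersey, although 13666 models were above 0 in Cholistani, 13783 in Jersey and 13409 in Holstein. The libraries differed in markers of blood cells, and since RNA came from mixed leukocytes, a difference in the number of cells of a type and in the RNA per cell cannot be told apart. The pan-leukocyte genes found, CORO1A and CD53, were present in every library. Marker lists were found only in part by name. Summed FPKM of T cell markers (3 of 6 found) was 8740.3 in Cholistani, 4089.8 in Jersey and 4000.3 in Holstein, that of B cell markers (3 of 6) was 16162, 8052 and 6542, that of neutrophil markers (6 of 8) 31792, 28807 and 36651, and that of platelet markers (5 of 7) 1542, 4759 and 6349. Most of the B cell sum was CD79A (14273, 6189.5 and 5281 FPKM in Cholistani, Jersey and Holstein), while PAX5 differed the other way (145, 381 and 296). Most of the neutrophil sum was S100A8, S100A9 and S100A12, while CSF3R (1976, 532 and 657) and CXCR2 (598, 7.62 and 33.5) were higher in Cholistani, as were 4 of the 6 neutrophil genes against both taurine libraries. CD14, the only monocyte marker found, had 398, 237 and 342 FPKM. Of the red cell markers found, AHSP was listed at 0 in all 3 libraries, HBA had 69.3 FPKM in Cholistani, 11.5 in Jersey and a listed 0 in Holstein, and ALAS2 had 32.3, 363 and 536 FPKM in Cholistani, Jersey and Holstein. The part of cell composition in the ATP synthase values was not tested.

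In the F1 head, ATP5F1B stood above ATP5F1A in every library. ATP5F1B, the beta subunit with the catalytic sites (chromosome 5, from 61355655 to 61361044 on btau4.0), had 4359.7 FPKM in Cholistani, 2687 in Jersey and 2971 in Holstein. ATP5F1A, the alpha subunit that alternates with beta in the head (chromosome 24, from 47454108 to 47466157), had 1169.98 FPKM in Cholistani, 1767 in Jersey and 1439 in Holstein. The Cholistani value of ATP5F1A was the lowest of its 3 values, which as deposited held for none of the other 9 genes. After each library was rescaled to the mean sum, it held for ATP5PB and ATP5PD as well. The log2 ratio of FPKM + 1 of ATP5F1A was -0.59 for Cholistani over Jersey and -0.30 for Cholistani over Holstein. Its log2 ratio for Jersey over Holstein was 0.30, the farthest from 0 of the 10 genes as deposited, and 0.22 after rescaling, beside -0.22 for ATP5F1B. The ratio of ATP5F1B to ATP5F1A, which does not depend on how a library is scaled, was 3.73 in Cholistani, 1.52 in Jersey and 2.06 in Holstein.

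The central stalk was represented among the 10 genes by ATP5F1C and ATP5F1D. ATP5F1C, the gamma subunit that forms the turning shaft (chromosome 13, from 14876927 to 14893412), had 2105 FPKM in Cholistani, 1296 in Jersey and 1249.85 in Holstein. ATP5F1D, the delta subunit at the foot of that shaft, had 2115 FPKM in Cholistani, 1061 in Jersey and 1078 in Holstein, a log2 ratio of 0.97 for Cholistani over Holstein that fell just short of 2-fold. The span listed for ATP5F1D, on chromosome 7 from 42115902 to 42828000, was shared with 35 other models, 28 of them above 0 in some library, so this span marks a crowded stretch and not the gene itself.

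As deposited, the peripheral stalk held the largest difference of the 10 genes and a small one side by side, whereas after rescaling to the mean sum ATP5F1A differed most. With the 100 most abundant models left out of the sum, the log2 ratios over Holstein were 0.85 for ATP5PF and -0.77 for ATP5F1A. ATP5PF, the coupling factor F6 (chromosome 1, listed from 10003539 to 10049774), had 2772 FPKM in Cholistani, 1106 in Jersey and 1107 in Holstein, so that the taurine libraries were almost equal and Cholistani was 2.50 times the Holstein value. A model named only by a protein accession shared its listed span and differed the other way, with 97.9 FPKM in Cholistani, 132 in Jersey and 156 in Holstein. ATP5PB, the long b subunit that spans the stalk (chromosome 3, from 34422853 to 34439903), had 907 FPKM in Cholistani, 775 in Jersey and 779 in Holstein, a log2 ratio of 0.22 over Holstein.

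The remaining stalk genes lay between these. ATP5PO, also called OSCP, which ties the stalk to the top of the head (chromosome 1, from 720699 to 728057), had 2421 FPKM in Cholistani, 1466 in Jersey and 1463 in Holstein. ATP5PD, subunit d (chromosome 19, from 58014852 to 58019617), had 1941 FPKM in Cholistani, 1308 in Jersey and 1301 in Holstein. All 4 stalk genes had their highest value in Cholistani as deposited, which ATP5PB and ATP5PD no longer had after the libraries were rescaled to equal sums, with log2 ratios over Holstein between 0.22 and 1.32, while their log2 ratios for Jersey over Holstein ran between -0.01 and 0.01.

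Both membrane genes among the 10 differed by about 2-fold as deposited. ATP5MC1, which encodes the c subunit of the turning ring (chromosome 19, from 38824543 to 38827240), had 1279.6 FPKM in Cholistani, 533 in Jersey and 556 in Holstein. ATP5ME, subunit e, which helps to hold the enzyme together as dimers (chromosome 6, from 117901247 to 117902790), had 5759.97 FPKM in Cholistani, 3056 in Jersey and 2780.3 in Holstein. As deposited, these 2 membrane genes summed to 2.11 times the Holstein value in Cholistani. The 4 stalk genes summed to 1.73 times and the 4 head and central stalk genes to 1.45 times. Further membrane genes, described below, had log2 ratios over Holstein between 0.44 (ATP5MC2) and 1.54 (ATP5MK), so these sums do not rank the parts. As shares of the library's summed FPKM, these membrane genes made up 0.0740% in Cholistani and 0.0561% in Holstein, and the stalk genes 0.0845% and 0.0782%. The head and central stalk genes made up 0.102% and 0.113%, the other order. Within this last group the log2 ratios over Holstein after rescaling were -0.98 for ATP5F1A, -0.12 for ATP5F1B, 0.07 for ATP5F1C and 0.29 for ATP5F1D. The turn was thus not shared by all its genes. As deposited, its median log2 ratio over Holstein was 0.65, as in the peripheral stalk.

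A ratio of 2-fold or more was used to call a gene. Set against Holstein, 3 of the 10 genes reached it as higher in Cholistani (ATP5PF, ATP5MC1 and ATP5ME), 0 reached it as lower and 7 were in between. Among the 15284 models above 0 in any library, 19.7% reached it as higher and 13.7% as lower. Set against Jersey, 2 genes were higher in Cholistani by that measure (ATP5PF and ATP5MC1) and 0 lower, beside 17.2% and 14.2% of all models. Between Jersey and Holstein 0 of the 10 genes were called, beside 7.99% of models higher and 4.7% lower in Jersey. ATP5F1D (0.97 over Holstein and 0.99 over Jersey) and, against Jersey, ATP5ME (0.91) fell just short of the limit.

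The median log2 ratio of the 10 genes was 0.74 for Cholistani over Holstein and 0.71 for Cholistani over Jersey, beside 0.15 and 0.12 over all models. Abundant models were shifted as well. The 1096 models at least as abundant as the least abundant of the 10 genes had medians of 0.57 and 0.56. The 10 genes lay only 0.17 and 0.15 above these. Of the 1096 models, 278 were called higher in Cholistani than in Holstein and 245 than in Jersey. For Jersey over Holstein the median was 0.00037 and the range ran between -0.14 and 0.30. The Cholistani comparisons share the Cholistani library and are not independent of each other.

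The direction for some of the genes depended on how the libraries were scaled. When each library was rescaled to the mean sum, the median of all models for Cholistani over Holstein moved to -0.43 and that of the 10 genes to 0.061. The genes thus lay 0.49 above all models after rescaling, beside 0.59 as deposited, but as deposited only 0.17 above the abundant models. After this rescaling, 6 of the 10 genes were higher in Cholistani than in Holstein and 4 were lower (ATP5F1A, ATP5F1B, ATP5PB and ATP5PD). At this scale 0 were called in either direction, beside 11.6% of all models called higher and 27.5% called lower. ATP5PF (0.65), ATP5MC1 (0.52), ATP5ME (0.37), ATP5F1D (0.29), ATP5F1C (0.07) and ATP5PO (0.05) kept a positive log2 ratio over Holstein. ATP5F1A had -0.98 over Holstein and -1.19 over Jersey, so that 1 of the 10 genes was called lower and 0 higher against Jersey, beside 26.2% and 10.4% of all models. Other scales turned fewer signs. With the 100 most abundant models left out of the sum, 8 of the 10 genes were higher in Cholistani than in Holstein and 2 were lower. ATP5F1B (0.08) and ATP5PD (0.11) were then positive, and ATP5F1A (-0.77) and ATP5PB (-0.25) negative. With ratios centred on the median of models with at least 10 FPKM in both libraries, ATP5PB had 0.02 and ATP5F1A -0.49. Rescaled values elsewhere are at the mean sum unless stated.

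**Figure D2:**
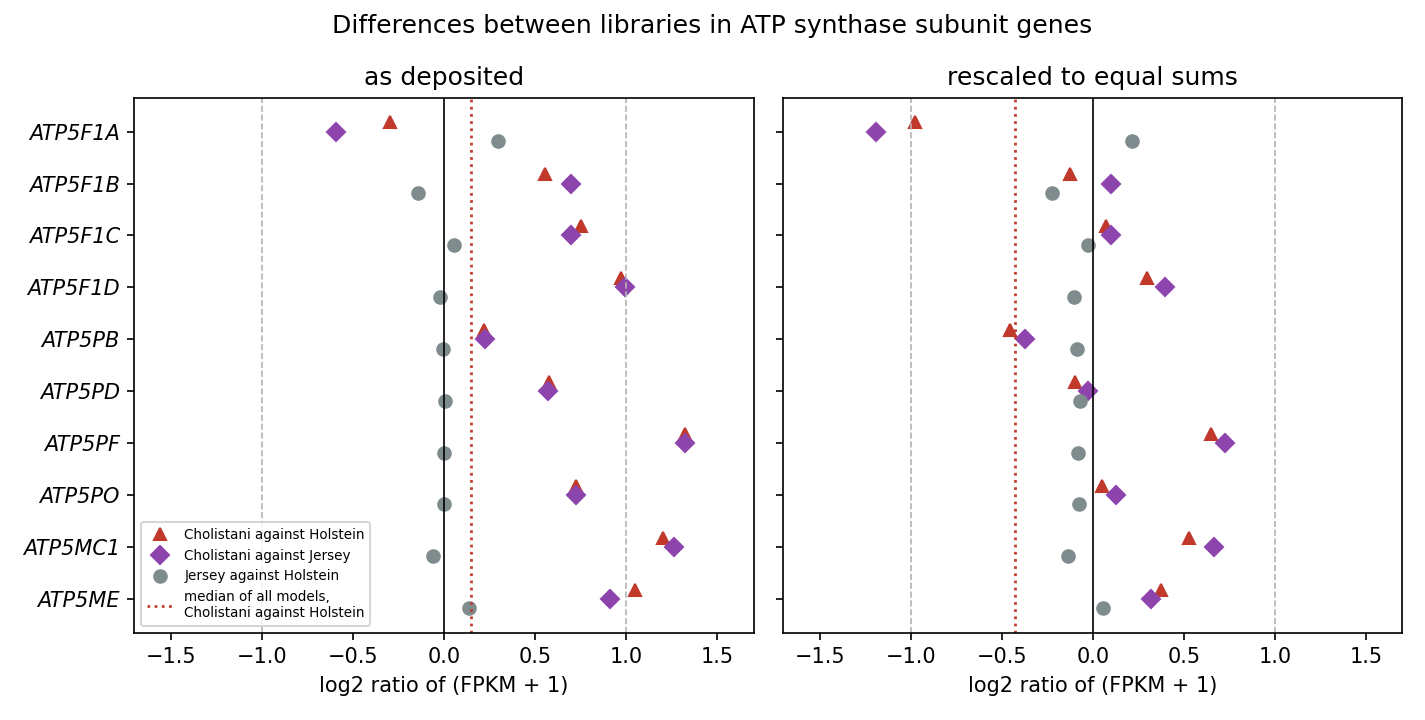
Log2 ratios of FPKM + 1 for the 10 genes, as deposited (left panel) and after rescaling each library to the mean sum (right panel), for Cholistani against Holstein (triangles), Cholistani against Jersey (diamonds) and Jersey against Holstein (circles). Dashed lines mark 2-fold, and the dotted line marks the median of all models for Cholistani against Holstein, at 0.15 on the left and -0.43 on the right. ATP5F1A is the gene farthest to the left in both panels and ATP5PF lies farthest to the right.

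The make-up of the 10 transcripts within a library is free of that scaling. ATP5F1A made up 4.71% of their summed FPKM in Cholistani, 11.7% in Jersey and 9.77% in Holstein, and ranked 9th, 3rd and 4th among the 10 in these libraries. ATP5PF made up 11.2% in Cholistani, 7.35% in Jersey and 7.52% in Holstein. ATP5ME, the most abundant in Cholistani and Jersey, made up 23.2% in Cholistani, 20.3% in Jersey and 18.9% in Holstein, where ATP5F1B came first with 20.2%.

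The shares of ATP5F1C and ATP5PO were nearly level. ATP5F1C held 8.48% of the sum in Cholistani, 8.61% in Jersey and 8.49% in Holstein, and ATP5PO held 9.75%, 9.74% and 9.94% in the same libraries. ATP5PB, the scarcest of the 10 in Cholistani, had 3.65% there against 5.15% in Jersey and 5.29% in Holstein, where ATP5MC1 was scarcest with 3.54% in Jersey and 3.77% in Holstein. Neighbours in these orders cannot be separated, since no library was repeated.

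**Figure D3:**
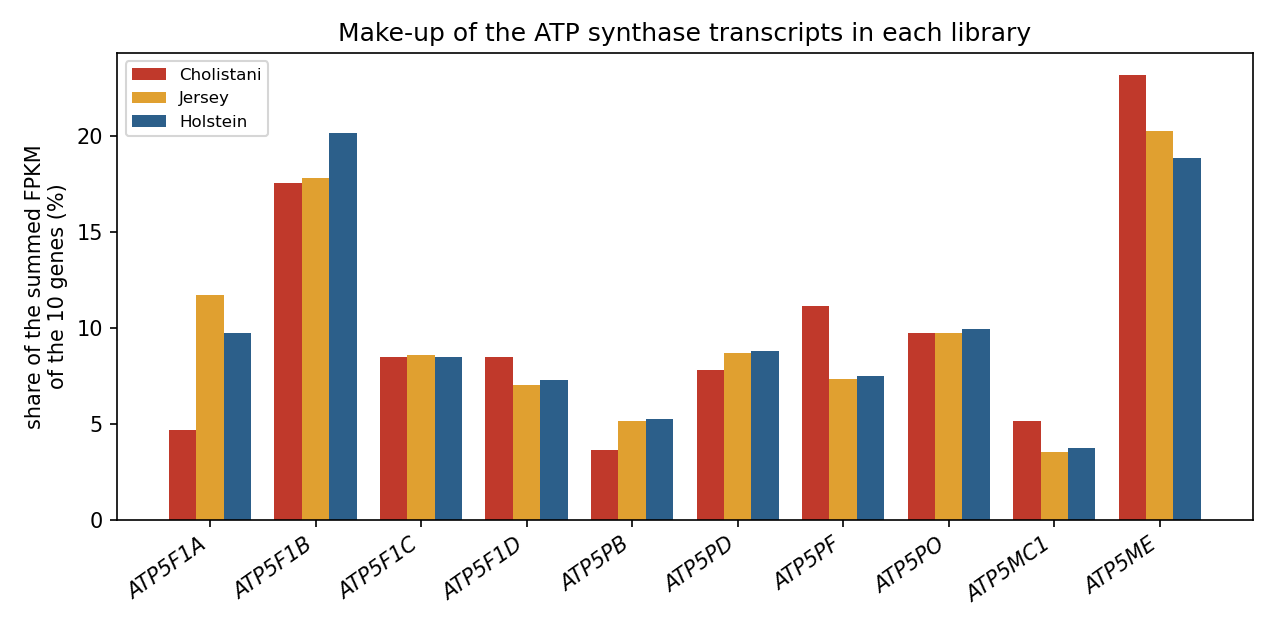
Share of each gene in the summed FPKM of the 10 ATP synthase genes (%, from 0), with bars for the Cholistani, Jersey and Holstein libraries. The Cholistani bar is the shortest for ATP5F1A (4.71%) and the tallest for ATP5PF (11.2%) and ATP5ME (23.2%), while ATP5F1C and ATP5PO are nearly level across the libraries.

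The c ring can be built from the products of ATP5MC1, ATP5MC2 and ATP5MC3, which share the same mature protein behind different import sequences. ATP5MC2 had 3622 FPKM in Cholistani, 2456 in Jersey and 2668 in Holstein, and ATP5MC3 had 2684 in Cholistani, 1606 in Jersey and 1810.2 in Holstein. ATP5MC1 was the scarcest of these genes in each library, and made up 16.9% of their sum in Cholistani, 11.6% in Jersey and 11.0% in Holstein. Because the coding stretches of these genes resemble each other and the alignment kept reads with several locations, their shares of the reads are uncertain.

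At the models taken, the 7 further subunit genes listed for comparison, c genes included, were all higher in Cholistani than in Holstein. Their median log2 ratio was 0.57. For ATP5F1E this rests on a chromosome 22 model (0.39), while its chromosome 13 model, described below, had -3.27. Of the 7 genes, 1 was called higher, beside 19.7% of all models. That gene was ATP5MK, a small subunit of the membrane part, which had 1507 FPKM in Cholistani, 599 in Jersey and 516 in Holstein at its more abundant model. This model lay on chromosome 19 from 53999747 to 54016013, and a second model of the same name, on chromosome 26 from 24421124 to 24441129, had 336 FPKM in Cholistani, 156 in Jersey and 107 in Holstein. The chromosome 26 model shared its listed span with TAF5, the gene that neighbours ATP5MK in the RefSeq annotation of ARS-UCD2.0. The more abundant chromosome 19 model shared its span with a model named LYAG (84.7, 69.1 and 60.2 FPKM in Cholistani, Jersey and Holstein). Which model carries the reads of ATP5MK itself is unknown. ATP5MF (subunit f) had 2599, 1263 and 1490.45 FPKM in Cholistani, Jersey and Holstein, ATP5MG (subunit g) had 2859, 2216 and 2079, and ATP5MJ had 1285, 692 and 772. After rescaling, 3 of the 7 had a positive log2 ratio over Holstein and 4 a negative one.

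ATP5F1E, the epsilon subunit of the central stalk, stood on 3 models that disagreed. A pair of models on chromosome 22 bore its name alone. The short one, from 35979709 to 35980100, had 1515 FPKM in Cholistani, 1073 in Jersey and 1153 in Holstein, and the broad one, from 35770984 to 35974363, had nearly the same values, 1489, 1052 and 1128. The model on chromosome 13, from 58074083 to 58086997, also bore the name of a miRNA and was therefore not matched by name. It had 446 FPKM in Cholistani, 3729.8 in Jersey and 4305 in Holstein, a log2 ratio of -3.27 over Holstein and -3.06 over Jersey, which were -3.95 and -3.66 after rescaling.

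The chromosome 13 model shared its listed span with TUBB1, the beta tubulin of platelets, which had 551 FPKM in Cholistani, 2997 in Jersey and 4430.1 in Holstein. The ratio of the ATP5F1E model to TUBB1 was 0.810 in Cholistani, 1.24 in Jersey and 0.972 in Holstein. RefSeq (ARS-UCD2.0) places ATP5F1E between PRELID3B and TUBB1, and of the 3 models only the one on chromosome 13 lies at TUBB1. The sources do not say that fragments were counted by strand, so reads of overlapping genes cannot be told apart here. Of the other platelet genes found, CLU was also lower in Cholistani (118, 668 and 941 FPKM in Cholistani, Jersey and Holstein), PPBP was lower by less than 2-fold (621, 939 and 821), GP1BB lay between the taurine values (62.9, 51.0 and 72.9), and GP9 was higher (190.04, 104 and 84.5). The part of platelet RNA in this result was not tested. The chromosome 13 model held 12.9% of the summed ATP5F1E models in Cholistani, 63.7% in Jersey and 65.4% in Holstein, and with all 3 models summed ATP5F1E had 3450.5 FPKM in Cholistani, 5855 in Jersey and 6587 in Holstein. The chromosome 22 models had nearly the same values, and the alignment kept reads with several locations. Whether the same reads entered each of them is unknown, so this sum and these shares are uncertain. The chromosome 13 model was picked out once its values were known.

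**Figure D4:**
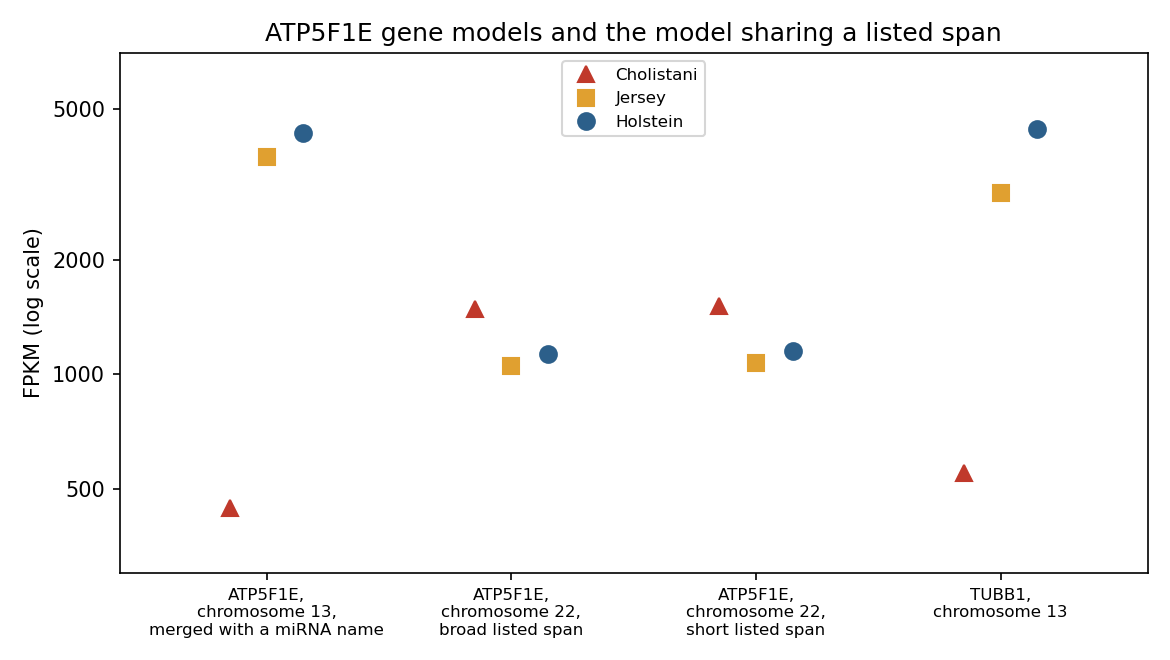
FPKM (log scale) of the 3 models named for ATP5F1E and of TUBB1, whose model has the same listed span as the chromosome 13 ATP5F1E model, with 1 point per pooled library: Cholistani (triangles), Jersey (squares) and Holstein (circles). The Cholistani point is the highest at both chromosome 22 models and by far the lowest at the chromosome 13 model (446 FPKM, against 3729.8 in Jersey and 4305 in Holstein) and at TUBB1.

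Genes that restrain or assemble the enzyme were listed as well. ATP5IF1, the inhibitor that stops the enzyme from splitting ATP, had 4339 FPKM in Cholistani, 4944 in Jersey and 5201 in Holstein, a log2 ratio of -0.26 over Holstein and -0.94 after rescaling. Set against ATP5F1B, to which it binds in the head, ATP5IF1 had a ratio of 0.995 in Cholistani, 1.84 in Jersey and 1.75 in Holstein. Its listed span was shared with DNAJC8, which as deposited was higher in Cholistani (356, 261 and 224 FPKM in Cholistani, Jersey and Holstein). After rescaling, the log2 ratios of DNAJC8 were -0.008 over Holstein and -0.15 over Jersey.

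The assembly factors were scarcer. ATPAF1, a chaperone of the beta subunit, had 190.4 FPKM in Cholistani, 174 in Jersey and 166 in Holstein, and ATPAF2, a chaperone of the alpha subunit, had 134, 63.2 and 74.1 in these libraries. FMC1, an assembly factor known from yeast, had 209.96, 213 and 207.5 FPKM, and DMAC2L, also called factor B, had 38.2, 17.4 and 25.2. Of these 5 genes found of 6 listed, 0 were called in either direction against Holstein, and the median log2 ratio was 0.19, with a range between -0.26 and 0.85. Against Jersey, 2 were called higher in Cholistani, ATPAF2 (1.07) and DMAC2L (1.09), beside 17.2% of all models, and after rescaling their ratios were 0.48 and 0.52, so that neither was called.

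The carriers that feed the enzyme were described in the same way. SLC25A3, which imports phosphate, had 2009.6 FPKM in Cholistani, 1163 in Jersey and 1339 in Holstein. SLC25A4, an exchanger of ADP for ATP, had 215, 184 and 141 FPKM. The outer membrane pores VDAC1 (502, 405 and 389 FPKM in Cholistani, Jersey and Holstein), VDAC2 (341, 333 and 325) and VDAC3 (370.4, 336 and 391) differed less between Cholistani and Holstein. Over Jersey the log2 ratio of VDAC1 (0.31) was above that of SLC25A4 (0.22). Of 5 genes found of 7 listed, 0 differed 2-fold, the median log2 ratio for Cholistani over Holstein was 0.37, and all 5 were lower in Cholistani than in Holstein after rescaling to the mean sum. SLC25A3 and SLC25A4 were slightly higher (0.12 and 0.14) when the 100 most abundant models were left out of the sum, and SLC25A3 was higher than in Jersey under either rescaling (0.19 and 0.39).

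The merged mitochondrial model that holds ATP6, ATP8 and COX3 had log2 ratios near the medians of the 10 genes. These were 0.77 for Cholistani over Holstein and 0.67 for Cholistani over Jersey, beside medians of 0.57 and 0.56 for the 1096 abundant models. The FPKM of the merged model was 10.8 times the sum of the 10 genes in Cholistani, 11.2 times in Jersey and 10.7 times in Holstein.

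Beside the respiratory complexes, the ATP synthase genes had a similar median. For Cholistani over Holstein the median log2 ratio was 0.95 in complex I, where 15 of 31 genes found were called higher and 1 lower. It was 0.72 for the 2 genes found of complex II, with 0 called, 0.88 for complex III, with 4 of 8 called higher and 0 lower, and 0.69 for the nuclear genes of complex IV, with 6 of 12 called higher and 2 lower. Of all models, 19.7% were called higher and 13.7% lower. After rescaling to the mean sum these medians were 0.27, 0.039, 0.20 and 0.012 for complexes I to IV, 0 genes of these lists were called higher, and 2 genes of complex I, 0 of complex II, 1 of complex III and 2 of complex IV were called lower, beside 11.6% and 27.5% of all models. With the 100 most abundant models left out of the sum, the medians were 0.48, 0.25, 0.41 and 0.22. At that scale 2 genes of complex I and 1 of complex IV were called higher, beside 1989 of the 15284 models. The genes farthest from 0 included NDUFB2 (1243 FPKM in Cholistani and 429 in Holstein) and NDUFA9 (755 and 265) of complex I and UQCRQ (1458 and 586) and CYC1 (1689 and 771) of complex III. In complex IV they were COX5B (4875.5 FPKM in Cholistani and 1571 in Holstein) and COX4I1, which differed the other way (1338 and 8929.7), and the complex II genes were SDHB (1938 and 1142) and SDHC (535 and 336). The log2 ratios of the 10 ATP synthase genes ran between -0.30 and 1.32, those of complex I between -1.19 and 1.53 and those of complex IV between -2.74 and 1.63. Lists of unequal length are not expected to have equal ranges, and no difference between complexes was tested.

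**Figure D5:**
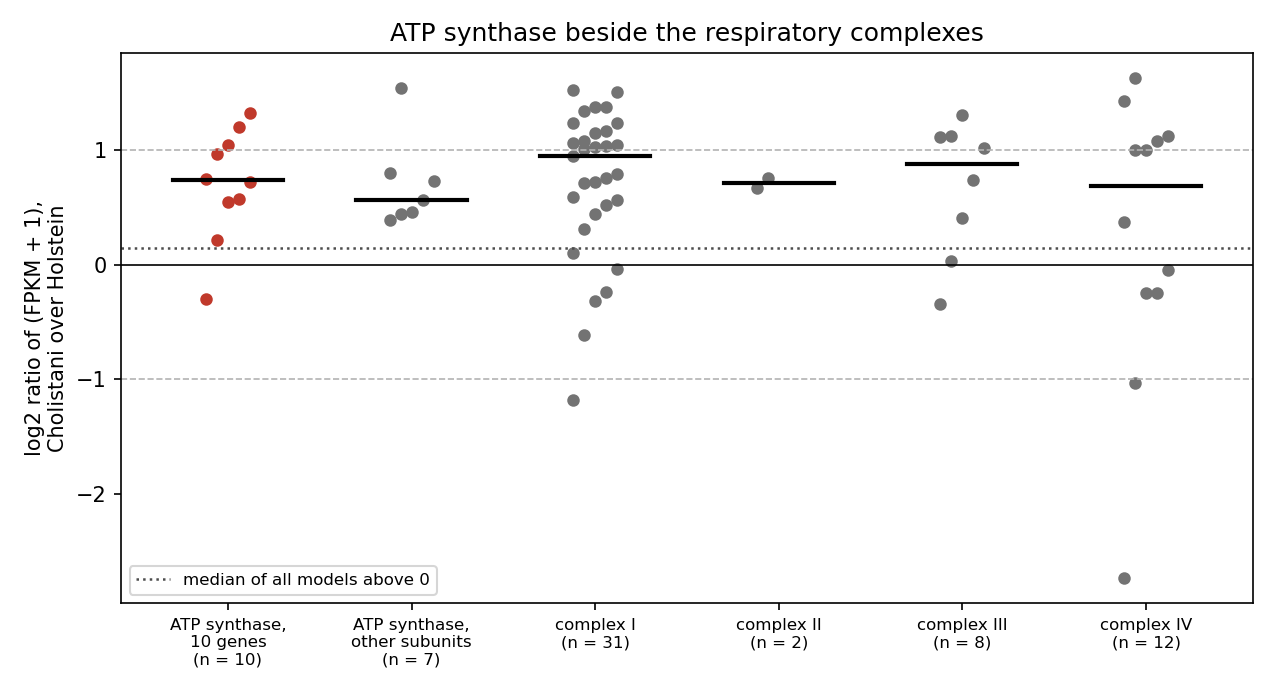
Log2 ratio of FPKM + 1 for Cholistani over Holstein, with 1 point per gene, for the 10 ATP synthase genes, 7 further ATP synthase subunit genes and the nuclear genes of complexes I to IV. Thick bars are medians, dashed lines mark 2-fold and the dotted line is the median of all models above 0. The median of the 10 genes (0.74) lies between those of complex IV (0.69) and complex III (0.88), and the lowest point is COX4I1.

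Among the 7941 other named models with a mean of at least 50 FPKM, those nearest to the median pair of log2 ratios of the 10 genes (0.74 for Cholistani over Holstein and 0.00037 for Jersey over Holstein) included a model named by accession only, DNPEP, UQCR10 and TPI1, at Euclidean distances of 0.0021, 0.0038, 0.0092 and 0.011. With 3 libraries such a likeness was common, and 185 models lay within a distance of 0.1.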

How the data were processed

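Per the labels and the study's methods, polyadenylated leukocyte RNA of each breed pool was sequenced as 1 library, and the authors aligned paired reads to btau4.0 with TopHat 1.0.14 and Bowtie 0.12.7, keeping reads with several but not many locations. The deposited values are FPKM, which the authors estimated per gene model with Cufflinks 0.9.3, scaled by upper quartile and with sequence bias corrected inside the program. Values were used as deposited, and 1 was added to listed starts, which were taken to count from 0. A gene listed under several models was taken at its most abundant model. Ratios were log2((FPKM + 1) / (FPKM + 1)), which understates differences of low genes, and calls were ratios of at least 2-fold, with no test, since each breed had 1 library. Models missing a value (5 in Jersey and 5 in Holstein) were left out of ratios. The fold computation was tested on simulated data.

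Every subunit, assembly and carrier gene found was named, with the 2 genes per respiratory complex farthest from 0. The genes, lists and rules were chosen with earlier results of these data known. Alternatives comprised 0.1 and 10 as pseudocount, a floor at 10 FPKM, centring and 2 ways of rescaling, summed models, names on 1 model only and thresholds of 1.5 and 3-fold. RefSeq ARS-UCD2.0, which lists all 10 genes, served for gene names and neighbours only. Promoter motifs were not analysed here. Python 3.11.15, pandas 2.3.3, numpy 2.4.6 and matplotlib 3.10.9 were used.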

Additional observations from a re-analysis of the deposited data

How the results depend on the processing

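Pseudocounts of 0.1 and 10 left all 30 ratios (10 genes in 3 comparisons) on the same side of 2-fold. The minimum of 10 FPKM, summed models and names on 1 model only could not change any ratio. Each of the 10 genes stood on 1 model, and their lowest value was 533 FPKM (ATP5MC1 in Jersey). Rescaling to the mean sum moved the median log2 ratio of the genes to 0.061 for Cholistani over Holstein and 0.11 for Cholistani over Jersey, and left 0 genes at least 2-fold higher in Cholistani in either comparison and 1 at least 2-fold lower than in Jersey (ATP5F1A), beside 11.6% of all models called higher than in Holstein, 10.4% higher than in Jersey and 26.2% lower than in Jersey. It changed the sign of 8 of the 30 ratios, beside 5 when the 100 most abundant models were left out of the sum and 2 with centring. Rescaling without the 100 most abundant models also left 0 genes 2-fold higher in either comparison, with a median of 0.27 over Holstein, and centring took ATP5ME to 0.85 over Holstein. At a threshold of 1.5-fold, 6 genes were higher in Cholistani than in Holstein, and 7 were higher and 1 lower than in Jersey, while at 3-fold 0 were higher in either comparison. The shares of all models at these thresholds were not computed, so these counts cannot be told from the general shift of the Cholistani library. Without the 3 genes whose listed span another model shares, an alternative chosen after seeing the data, 1 of 7 genes was at least 2-fold higher than in Jersey, beside 17.2% of all models. No paired analysis was possible because each breed had 1 library, and no library could be left out. The fragments behind each FPKM are unknown, so the precision of single values is unknown as well.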
